A study of Homo sapiens with 3 samples.

Results

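CENPE, MYBL1 and REV3L are 3 genes of cell division and DNA damage tolerance, chosen by symbol with earlier ratios of these same libraries in view, so their values are descriptions. They were examined in the human liver cancer line PLC, among the 11642 genes whose RefSeq transcripts all had rows of their own in the deposited table. All 3 belonged to the 1015 of those genes that were measured, meaning a mean of at least 1 CPM (counts scaled to 1000000 units of library size, after TMM scaling). The study sequenced total RNA from 1 library of cells labelled NTC, 1 labelled shHKDC1 and 1 labelled shRBBP5. The series' design text calls the last pair knockdowns of HKDC1 and RBBP5 and asks whether the 2 genes regulate gene expression, while the control is given by its abbreviation alone. HKDC1 is a hexokinase-domain protein and RBBP5 a core subunit of the complexes that methylate lysine 4 of histone H3. All libraries came from this line, grown in DMEM with serum. The hairpin sequences, the number of clones and the time after knockdown are not given here.

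CENPE is the kinesin motor of the kinetochore. It carries chromosomes along spindle microtubules to the metaphase plate, and its transcript is most abundant late in the cell cycle. MYBL1, also called A-MYB, is a sequence-specific activator of the MYB family, best known for driving meiotic genes in the male germ line and close in its DNA-binding domain to MYBL2, which activates mitotic genes in dividing cells. REV3L is the catalytic subunit of DNA polymerase zeta, which extends DNA synthesis past damaged template bases together with REV1 and MAD2L2.

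There were no replicates, so no difference below has a replicate check and no p-value was computed. The NTC, shHKDC1 and shRBBP5 libraries held 161750310, 115556160 and 154533913 units, where a unit is the deposited estimated count and 4 units are taken as 1 sequenced fragment. Most counting fell on anonymous assembled loci, whose share was lowest for NTC (99.43%), higher for shRBBP5 (99.53%) and highest for shHKDC1 (99.60%). The small share left to RefSeq rows was therefore largest in NTC and smallest in shHKDC1, the same order as the 3 genes' levels below. The part of this difference in their ratios was not tested. The measured named genes had a median of 2.60 CPM. Reads of a gene that were counted in an anonymous locus are not in its named rows. The levels below may therefore be only part of a gene's total, and that part was not measured. Neither targeted gene had a row, so the knockdowns themselves were not checked. Of 14 hepatocyte markers 3 had rows, and the fibrinogen chain FGB stood at 2.41, 0.600 and 2.30 CPM in NTC, shHKDC1 and shRBBP5. Coagulation factor F5 was at 3.49, 0.987 and 3.10 CPM in the same order, and the third, CYP3A4, held 0, 4 and 0 units. No fibroblast, endothelial or leukocyte marker with a row reached a mean of 1 CPM. The endothelial marker VWF, though below that mean, was at 0.706 CPM in shHKDC1 (73 units) against 0.017 and 0.019 CPM in NTC and shRBBP5 (3 units each), while the other 4 endothelial markers with rows did not exceed 16 units in any library. The part of these marker differences in the results below was not tested.

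CENPE had 2 RefSeq rows, MYBL1 had 3 and REV3L had 4. RefSeq accessions were paired with GENCODE transcripts without their version numbers, so exon counts and lengths are those of the paired models. The CENPE row NM_001813 pairs with a model of 49 exons that encodes 2701 residues, and NM_001286734 with one of 47 exons that encodes 2580. The longer form keeps exon 17, 75 bases at chr4:103163479-103163553, and exon 38, 291 bases at chr4:103139789-103140079. The shorter form has 3 extra bases at the boundary of another exon, so the proteins differ by 121 residues in length. Both exons are coding and are printed because the 2 rows, which differ mainly in them, behaved differently. Capitals mark the exon that NM_001286734 lacks, and lower case the 4 bases of the neighbouring exons on each side, 5′ to 3′ on the minus strand (GENCODE v29, GRCh38).
CENPE exon 17: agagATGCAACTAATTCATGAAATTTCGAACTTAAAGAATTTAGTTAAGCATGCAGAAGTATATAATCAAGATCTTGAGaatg
CENPE exon 38: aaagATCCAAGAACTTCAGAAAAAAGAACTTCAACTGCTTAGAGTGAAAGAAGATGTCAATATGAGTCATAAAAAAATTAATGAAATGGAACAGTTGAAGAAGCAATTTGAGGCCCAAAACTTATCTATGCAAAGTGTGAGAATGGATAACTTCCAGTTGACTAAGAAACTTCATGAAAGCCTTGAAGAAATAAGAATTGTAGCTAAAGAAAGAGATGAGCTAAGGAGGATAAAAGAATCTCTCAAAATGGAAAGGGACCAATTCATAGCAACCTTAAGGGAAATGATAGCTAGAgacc

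The promoter-side sequence of CENPE and REV3L is shown because their summed levels were lower in the same library. MYBL1, also lower there, had no entry in the promoter set used. Whether these sequences bear on the levels was not tested. The windows are the 250 bases before the RefSeq start (GRCh38.p14), at chr4:103198344-103198593 for CENPE and at chr6:111483712-111483961 for the upstream start of REV3L, both on the minus strand. The paired GENCODE models start earlier, so that 66 bases of the CENPE window and 4 of the REV3L window lie in their first exon. Those bases were searched and are not printed. Capitals mark matches within the printed bases, on either strand, to the searched motifs TTTGAA and TTTAAA (letters of the cell cycle homology region), GCGGGA (an E2F core), AACNG (a MYB core) and CCAAT.
CENPE: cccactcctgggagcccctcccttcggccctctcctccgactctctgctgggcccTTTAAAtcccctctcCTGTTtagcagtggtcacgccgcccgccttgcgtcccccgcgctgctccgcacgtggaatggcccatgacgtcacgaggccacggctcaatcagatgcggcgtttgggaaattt
REV3L: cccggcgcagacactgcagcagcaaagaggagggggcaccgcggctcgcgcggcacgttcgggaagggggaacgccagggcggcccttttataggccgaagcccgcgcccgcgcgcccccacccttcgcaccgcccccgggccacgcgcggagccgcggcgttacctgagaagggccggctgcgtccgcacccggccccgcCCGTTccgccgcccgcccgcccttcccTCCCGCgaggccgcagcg

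CENPE held 3 matches to TTTAAA, at bases -195, -68 and -62 from the RefSeq start. The match at -68 spans the start of the GENCODE model and the adjoining match at -62 lies in its first exon. TTTAAA occurred in 11.3% of 35116 RefSeq promoter windows of this length. CENPE also held 1 match to AACNG, at -180, a motif present in 70.6% of windows. The upstream window of REV3L held 1 match to AACNG, at -49, and 1 to GCGGGA, at -22, which 23.5% of windows held. The window of a second RefSeq start of REV3L, not printed, held 3 matches to GCGGGA, at -209, -118 and -86, and 0 to the other motifs. Neither printed gene's window held TTTGAA or CCAAT, present in 13.3% and 32% of windows, and the CENPE window and the upstream REV3L window were 63.6% and 78.4% G and C against a median of 58.0%. These matches describe letters in the window and are not binding sites.

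CENPE stood at 10.03 CPM in the NTC library (1757 units), at 2.50 in shHKDC1 (258 units) and at 5.73 in shRBBP5 (915 units). The exact 95% Poisson intervals of these levels, 9.11 to 11.01, 1.91 to 3.16 and 5.02 to 6.53 CPM, did not overlap, and like all intervals here they cover counting error only. The log2 ratio of shHKDC1 over NTC was -2.00 [95% interval -2.42 to -1.64], a level 4.01-fold lower, and that of shRBBP5 over NTC was -0.81 [-1.04 to -0.57]. A gene was called lower when its log2 ratio was -1 or less and the exact Clopper-Pearson interval left out 0, so CENPE was called in shHKDC1 and missed the 2-fold mark in shRBBP5. In bulk RNA, fewer cells carrying a transcript and less of it per cell cannot be told apart. Whether reads of the gene were counted in anonymous loci instead was not tested.

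MYBL1 stood at 8.43 CPM in the NTC library (1477 units), at 2.20 in shHKDC1 (227 units) and at 5.96 in shRBBP5 (951 units). Its level was thus lowest in shHKDC1 as well, with a log2 ratio of -1.94 [-2.36 to -1.53] over NTC. In shRBBP5 the ratio was -0.50 [-0.74 to -0.26], a level 1.41-fold lower that was not called.

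REV3L stood at 7.72 CPM in the NTC library (1352 units), at 2.26 in shHKDC1 (234 units) and at 5.86 in shRBBP5 (935 units). The log2 ratio was -1.77 [-2.21 to -1.38] in shHKDC1 and -0.40 [-0.64 to -0.15] in shRBBP5, again a call in the first and none in the second. REV3L therefore had the smallest ratio in size of the 3 genes against NTC, although the intervals of the 3 genes overlapped in both comparisons. For MYBL1 and REV3L, too, the intervals of the levels in the 3 libraries did not overlap, and each of the 3 genes was above 1 CPM in every library.

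**Figure D1:**
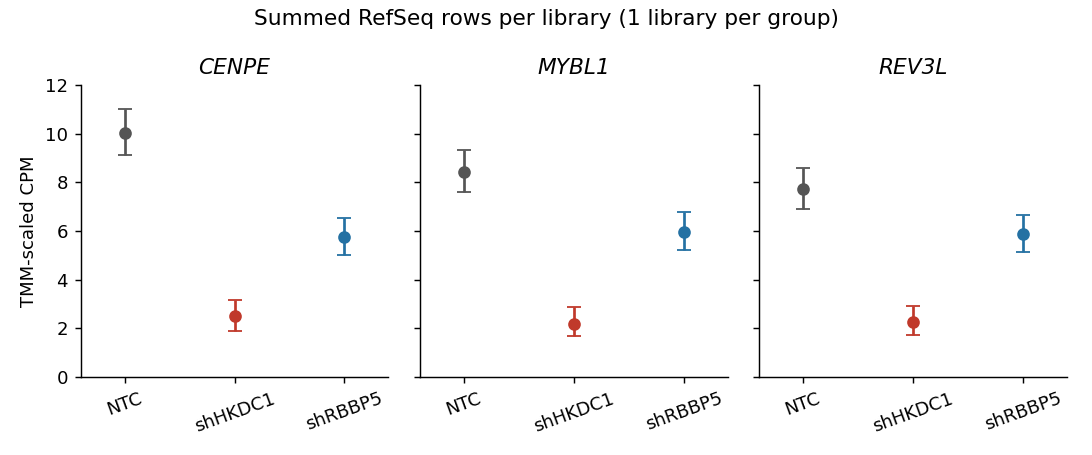
TMM-scaled CPM (vertical axis) of CENPE, MYBL1 and REV3L in the NTC, shHKDC1 and shRBBP5 libraries (horizontal axis); points are the summed RefSeq rows and bars exact 95% Poisson intervals for counting error. In every panel shHKDC1 is lowest, at 2.20 to 2.50 CPM, and shRBBP5 lies between it and NTC, at 5.73 to 5.96 CPM.

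All 3 genes had the order shHKDC1 below shRBBP5 below NTC, an order that 33.3% of the measured named genes shared with no fold asked. The 3 were called lower in shHKDC1 against NTC, where 23.2% of measured named genes were called lower and 8.37% higher. Among the 211 protein-coding named genes with a mean of at least 5 CPM, 21.8% were lower, and CENPE, MYBL1 and REV3L ranked 7, 8 and 9 from the lowest ratio. Because the genes were chosen with this contrast known, nothing is read from that count. In shRBBP5 against NTC 0 of the 3 were called, against a background of 8.67% lower and 2.27% higher among named genes. The median ratio of the 3 was -1.94 in shHKDC1 and -0.50 in shRBBP5, beside -0.39 and -0.20 over all 1015 named genes. Over all 13370 measured features, anonymous loci included, the medians were -0.03 and 0.01, so the 1015 measured named genes lay lower at the median. The measured loci were more abundant, with a median of 28.2 CPM against 2.60. The balance of calls depended on the CPM filter. With no filter, 557 of 11642 named genes were higher and 473 lower in shHKDC1 over NTC, and 134 and 291 in shRBBP5 over NTC. The 2 comparisons share the NTC library, so a high or low value of that library enters both.

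Compared directly, shHKDC1 was below shRBBP5 for all 3 genes. The log2 ratio was -1.44 [-1.88 to -1.01] for MYBL1, -1.37 [-1.83 to -0.97] for REV3L and -1.20 [-1.64 to -0.81] for CENPE. All 3 were called lower, where 17.4% of named genes were lower and 11.4% higher, and 12.9% were lower in shHKDC1 than in both other libraries. CENPE, with the lowest ratio of the 3 in each knockdown over NTC, thus had the ratio nearest to 0 between the knockdowns, and the 3 intervals overlapped. These calls are again a description, since the direct ratio uses the shHKDC1 library on which the choice was made. For CENPE and MYBL1 the sums include a row listed at 0 in shHKDC1, as given below. Their rows filled in both libraries had direct ratios of 0.04 [-0.45 to 0.50] for CENPE NM_001813 and -0.29 [-0.77 to 0.19] for MYBL1 NM_001080416. Neither of these rows was called.

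**Figure D2:**
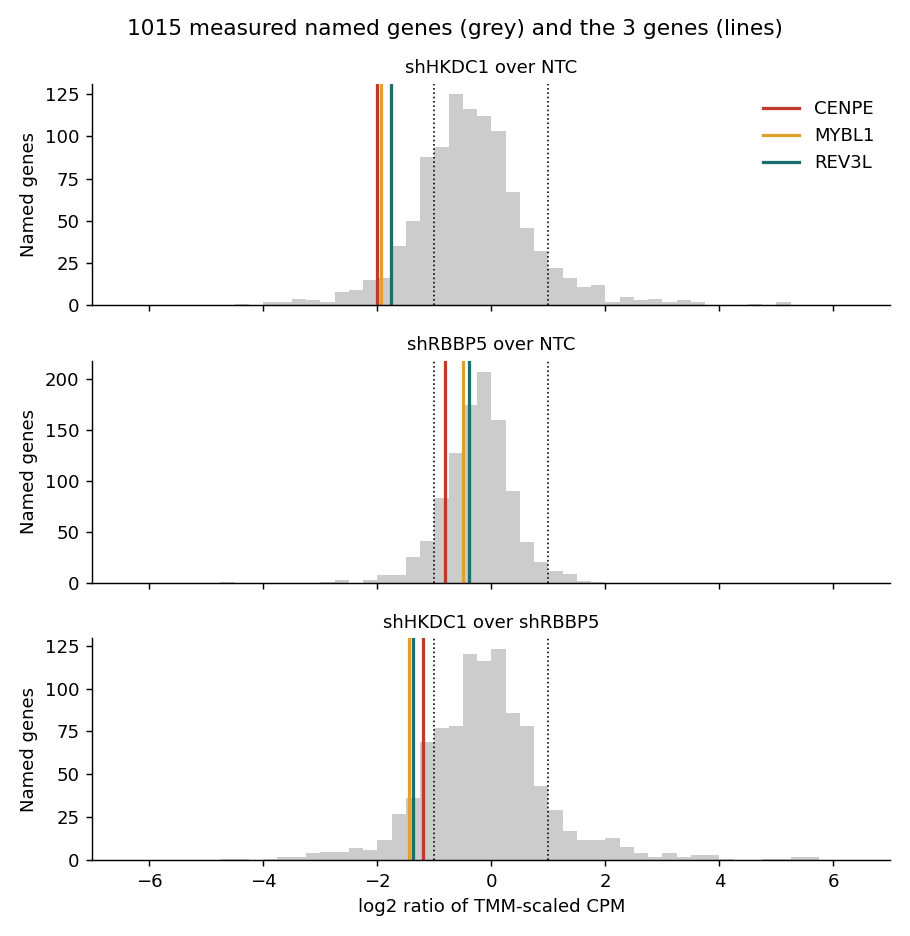
Number of the 1015 measured named genes (vertical axis) by log2 ratio of TMM-scaled CPM (horizontal axis) in the 3 comparisons, with CENPE, MYBL1 and REV3L as coloured lines and dotted lines at -1 and 1. The 3 genes lie between -2.00 and -1.77 in shHKDC1 over NTC, between -0.81 and -0.40 in shRBBP5 over NTC, and between -1.44 and -1.20 in the direct comparison.

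Total-count scaling put the 3 genes at -2.28 to -2.04 in shHKDC1 over NTC, while it moved the median of all measured features by -0.28, from -0.03 over 13370 features to -0.31 over 13381. With it named genes divided into 59 higher and 346 lower in this comparison, where TMM gave 85 and 235, and into 86 and 249 in the direct one, where TMM gave 116 and 177. The transcripts of the 3 genes are long, at 5192 to 10943 bases in the longest paired GENCODE model. Of the 326 measured named genes in that range of length, 27.3% were lower in shHKDC1 than in NTC, with a median log2 ratio of -0.58. In shRBBP5, 11% of them were lower, with a median of -0.27. The part of transcript length in the ratios of the 3 genes was not tested.

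Levels of different genes were compared per kilobase of the longest paired model. In NTC MYBL1 was highest, at 1.62 CPM per kilobase, followed by CENPE at 1.16 and REV3L at 0.705. The same order held in shHKDC1, at 0.423, 0.290 and 0.207 CPM per kilobase, and in shRBBP5, at 1.15, 0.666 and 0.536. Paired models differ in how much untranslated sequence they hold, so these per-length levels depend on the model used, and with 1 library per group no replicate spread separates neighbours in the order.

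All 3 genes lie on the minus strand, in GENCODE v29 (GRCh38) on chromosome 4 from 103105806 to 103198409 for CENPE, on chromosome 8 from 66562175 to 66614247 for MYBL1, and on chromosome 6 from 111299028 to 111483715 for REV3L. The deposited table was made on hg19, so these positions only place the genes. No other annotated gene shared exonic bases with CENPE or MYBL1, whereas REV3L shared 117 exonic bases with the antisense gene TRAF3IP2-AS1 and 576 with AL080317.3. Whether counting used strand is not given, so reads of REV3L and of these antisense genes cannot be told apart over those bases.

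The summed values hid different behaviour of the transcript rows. CENPE in NTC was carried mainly by NM_001286734, the row of the shorter form, at 8.29 CPM against 1.74 CPM for NM_001813. In shHKDC1 the shorter form was listed at 0 and NM_001813 held all 258 units, at 2.50 CPM. In shRBBP5 the rows stood at 3.30 CPM for the shorter form and 2.44 CPM for the longer. NM_001813 thus made up 17.3% of CENPE units in NTC [exact binomial 95% interval 13.9% to 21.2%], 100% in shHKDC1 [94.4% to 100%] and 42.5% in shRBBP5 [35.9% to 49.0%].

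The longer CENPE row was not lower in either knockdown. Its log2 ratio over NTC was 0.53 [0.01 to 1.01] in shHKDC1, or 0.25 with total-count scaling, and 0.49 [0.04 to 0.94] in shRBBP5, and neither was called. The shorter form was 2.51-fold lower in shRBBP5 than in NTC, at -1.33 [-1.62 to -1.03], past the mark that the summed gene missed. The lower CENPE total in both knockdowns therefore lay entirely in the row without exons 17 and 38.

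MYBL1 units fell on NM_001080416, whose paired model encodes 752 residues, and on NM_001144755, whose model lacks 1 exon of 180 bases and encodes 692. The models paired with these rows are 5192 and 2148 bases long, so they differ beyond that exon. In NTC these rows stood at 4.95 and 3.48 CPM. In shHKDC1 NM_001144755 was listed at 0 and NM_001080416 stood at 2.20 CPM, while in shRBBP5 the rows were at 3.28 and 2.68 CPM respectively. Unlike the longer CENPE row, NM_001080416 was itself lower in shHKDC1, at -1.17 [-1.61 to -0.74], and it had a ratio of -0.88 [-1.23 to -0.54] in shRBBP5. NM_001144755 was nearly level between shRBBP5 and NTC, at -0.09 [-0.43 to 0.27], and NM_001294282 was listed at 0 in all 3 libraries.

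REV3L rested on a single row. NM_001286431 held all REV3L units in NTC and shHKDC1 and 97.9% in shRBBP5, where NM_002912 held the other 20 units, about 5 fragments. The model paired with NM_001286431 has an extra exon of 128 bases near its 5′ end and encodes 3052 residues, against 3130 for NM_002912. NM_001286432 and NM_001372078 were listed at 0 in all 3 libraries. The REV3L ratios are therefore close to those of 1 row, -1.77 in shHKDC1 and -0.43 in shRBBP5.

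Rows well filled in 1 library and listed at 0 in another were common in this table. Of 329 rows with at least 500 units in NTC, among named genes with more than 1 row, 66 (20.1%) were listed at 0 in shHKDC1 and 28 (8.5%) in shRBBP5. In 64 of the 66 and in all 28, the other rows of the gene held at least 100 units in the library with the 0. Of 242 rows with at least 500 units in shRBBP5, 39 (16.1%) were listed at 0 in shHKDC1. In the opposite direction, 7 of 99 rows with at least 500 units in shHKDC1 were listed at 0 in NTC, and 9 (9.1%) in shRBBP5. The mark of 500 units was not scaled for library size, and shHKDC1 was the smallest library. The directions are therefore compared at unlike CPM, and the part of library size in the zeros was not tested. The rows of a gene share sequence, and the intervals on shares do not cover error in how reads were assigned between rows. Whether the zeros of the CENPE and MYBL1 rows reflect a change of splice form or of that assignment was not tested.

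**Figure D3:**
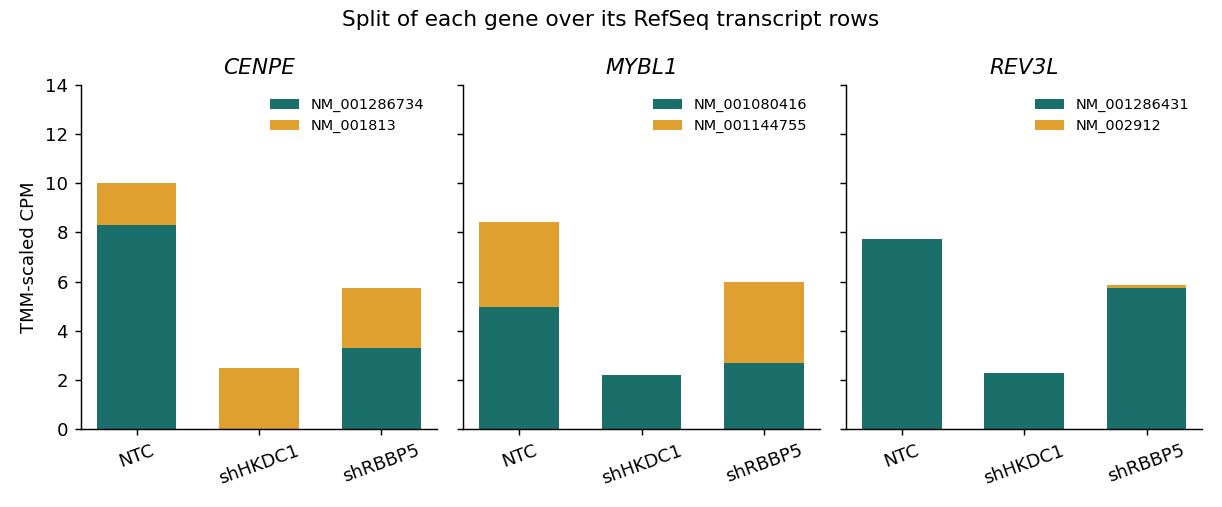
Stacked TMM-scaled CPM (vertical axis) of the RefSeq transcript rows of CENPE, MYBL1 and REV3L in each library (horizontal axis); rows at 0 in all libraries are not drawn. In shHKDC1 the CENPE bar consists of NM_001813 alone, at 2.50 CPM, and the MYBL1 bar of NM_001080416 alone, at 2.20 CPM, while REV3L rests on NM_001286431 throughout.

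Genes of the same processes were seen only in part. Of 251 genes on 8 lists of kinetochore, spindle, cyclin, MYB and E2F, translesion, replication, repair and cohesin genes, 10 had rows of their own and 8 were measured, the 3 genes included. Lists of cyclins, of replication factors and of cohesin and condensin had 0 genes with rows, so the proliferation state of the libraries was not measured here. Of the other 5 measured genes, 4 were lower in shHKDC1 than in NTC and 1 was neither, with a median log2 ratio of -1.27. Over all 1015 measured named genes 23.2% were lower, with a median of -0.39. In shRBBP5 against NTC and in the direct comparison 0 of these 5 were called in either direction, although total-count scaling called CENPC (-1.18) and POLI (-1.09) lower in the direct one.

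CENPC, which anchors the kinetochore to centromeric chromatin, was at 4.29, 2.05 and 4.04 CPM in the NTC, shHKDC1 and shRBBP5 libraries. Its ratio was -1.06 [-1.53 to -0.62] in shHKDC1, or -0.99 and no call with upper-quartile scaling, and -0.09 [-0.40 to 0.22] in shRBBP5. POLI, a translesion polymerase of the Y family that inserts bases opposite lesions, was at 6.44, 2.55 and 4.73 CPM in NTC, shHKDC1 and shRBBP5. Its ratios were -1.33 [-1.74 to -0.94] and -0.45 [-0.72 to -0.17].

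ATRX, a chromatin remodeller that deposits histone H3.3 at repeats, was at 18.2, 7.26 and 10.5 CPM, with ratios of -1.33 [-1.56 to -1.09] in shHKDC1 and -0.80 [-0.97 to -0.62] in shRBBP5. BRIP1, a helicase of crosslink repair that partners BRCA1, was at 10.1, 4.16 and 6.81 CPM, with ratios of -1.27 [-1.58 to -0.96] and -0.56 [-0.78 to -0.34]. TFDP2, the dimerization partner of E2F factors, was the exception. It stood at 22.7, 23.2 and 21.9 CPM, with ratios of 0.03 [-0.12 to 0.18], or -0.25 with total-count scaling, and -0.05 [-0.19 to 0.08]. MYB, the relative of MYBL1 that drives blood progenitors, did not reach a mean of 1 CPM and stood at 1.42, 0.242 and 0.426 CPM in the same order of libraries. Its ratios over NTC were -2.52 [-4.11 to -1.40] in shHKDC1 and -1.72 [-2.60 to -0.94] in shRBBP5. Both met the call rule, at only 25 and 68 units in the knockdowns. POLN, the other list gene with rows that fell below that mean, held 55, 13 and 39 units. Its ratios were -1.28 [-3.90 to 0.38] in shHKDC1 and -0.36 [-1.68 to 0.92] in shRBBP5, and neither was called.

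**Figure D4:**
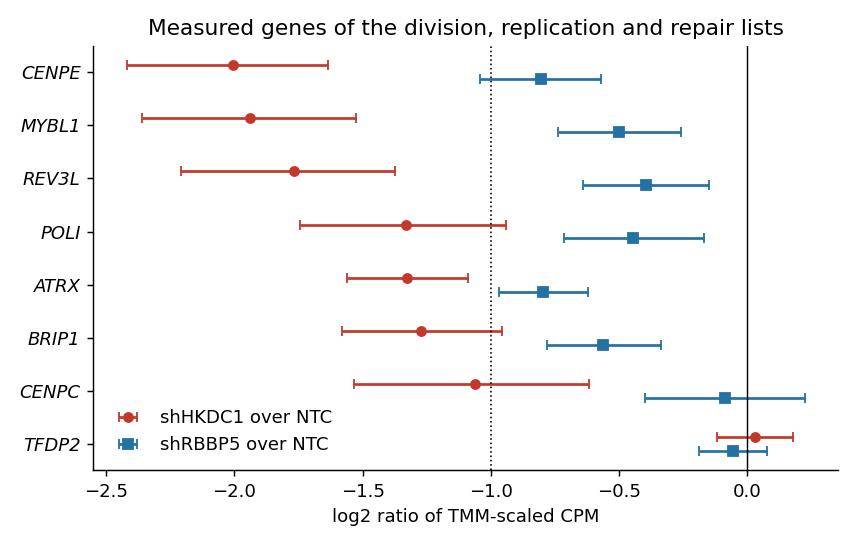
Log2 ratio of TMM-scaled CPM (horizontal axis) of shHKDC1 over NTC (red circles) and shRBBP5 over NTC (blue squares) for the 8 measured genes of the lists, with exact 95% intervals for counting error and a dotted line at -1. All but TFDP2 lie below -1 in shHKDC1 with TMM scaling (CENPC at -0.99 with upper-quartile scaling), CENPE lowest at -2.00, and no shRBBP5 ratio reaches -1.

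The genes most like the 3 in pattern were found by Euclidean distance between log2 CPM profiles over the 3 libraries, each centred on its own mean, among 210 other protein-coding named genes with a mean of at least 5 CPM. EVC, which acts in Hedgehog signalling at the cilium, was nearest to CENPE, at a distance of 0.08, with 26.8, 6.35 and 15.8 CPM in NTC, shHKDC1 and shRBBP5. COBLL1 at 0.15 and the lipid transfer protein VPS13A at 0.22 followed. COBLL1 was nearest to MYBL1, at 0.12, ahead of REV3L at 0.12 and EVC at 0.19. SYNE2, a nuclear envelope protein, was nearest to REV3L, at 0.12, followed by MYBL1 at 0.12 and COBLL1 at 0.23. MYBL1 and REV3L thus each held rank 2 in nearness to the other, while CENPE held rank 4 from MYBL1 and rank 5 from REV3L. With 3 libraries such distances only sort the genes and show no relation between them.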

How the data were processed

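RNA from 3 libraries of PLC cells was analysed, 1 each labelled NTC, shHKDC1 and shRBBP5. The submitters' processing notes name the build hg19 and the tools DESeq2 1.28.1, HISAT2 2.2.1 and StringTie 1.3.4, with no role for each. The authors deposited estimated counts (expected counts) for 43704 rows, 27403 of them RefSeq transcripts, not scaled for library size or length. Annotation, strand setting and counting tool: not given in the sources used here. Columns were matched to libraries by their abbreviations.

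RefSeq accessions were matched to symbols of GRCh38.p14 without versions (27357 rows), and rows were summed per gene. Genes with every RefSeq row (11642 of 12034) and anonymous loci gave TMM factors of 1.083, 0.894 and 1.032 (edgeR 4.0.16, R 4.3.3) for NTC, shHKDC1 and shRBBP5. Ratios used a pseudocount of 0.5 units. In NTC, 332 rows held 3 units, 525 held 4 and 235 held 5, so 4 units were assumed to be 1 fragment for all intervals. No such peak stood at 8 units, since 254 rows held 7, 227 held 8 and 162 held 9. A count of 0 allows 3 fragments, or 0.0685, 0.116 and 0.0752 CPM in the same order. Without molecular identifiers, reads may be copies of 1 molecule. With 1 library per group no test between groups was possible. On simulated counts for shHKDC1 over NTC, with counting noise as the sole error, the call rule recovered 100% of 100 planted 4-fold changes among 1015 genes and made 3 false calls among 815 unchanged genes. The named genes were the 3 genes, every measured gene of the 8 lists, and the 3 nearest genes in pattern. MYB and POLN were named after their values were seen. Members and lists were chosen with earlier results of these data known. Alternatives were total counts, DESeq2 1.42.0 size factors, upper quartiles, a pseudocount of 5, units taken as reads, leaving out the 20 most abundant rows, other CPM filters and the most abundant row of each gene. Other steps used Python 3.11.15, NumPy 2.4.6, SciPy 1.17.1 and pandas 2.3.3. The RefSeq promoter table matched CENPE and REV3L.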

Additional observations from a re-analysis of the deposited data

How the results depend on the processing

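Across total counts, DESeq2 size factors, upper quartiles, a pseudocount of 5, units taken as reads and leaving out the 20 most abundant rows, the 9 ratios of CENPE, MYBL1 and REV3L kept their direction and their calls. In shHKDC1 over NTC they ranged from -2.28 to -1.93 for CENPE, -2.21 to -1.86 for MYBL1 and -2.04 to -1.69 for REV3L.

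With only the most abundant RefSeq row of each gene, CENPE in shHKDC1 was listed at 0. Set to the 3 fragments that a count of 0 allows, it gave log2 ratios of -6.16 against NTC and -4.83 against shRBBP5. These are bounds from an assumed count and not measured ratios, so no interval is given. That row gave -1.33 in shRBBP5 over NTC, a call the summed gene did not have. The MYBL1 row gave -1.17 in shHKDC1 over NTC, -0.88 in shRBBP5 over NTC and -0.29 in the direct comparison, where its call was lost. With that setting 918 genes were tested in place of 1015. Calls went from 85 to 130 higher and 235 to 275 lower in shHKDC1 over NTC, from 23 to 71 and 88 to 114 in shRBBP5 over NTC, and from 116 to 130 and 177 to 238 in the direct comparison. The cause was not tested.

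With a mean of at least 5 CPM, 216 genes were tested. Calls were 2 higher and 48 lower in shHKDC1 over NTC, 0 and 7 in shRBBP5 over NTC, and 3 and 32 in the direct comparison. With no filter, 11642 genes gave 557 higher and 473 lower, 134 and 291, and 661 and 390 in the same order. A gene low in 1 library passes the filter on its level in the others. No paired analysis was possible because each group has 1 library. No library could be left out for the same reason.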
